A study of Mus musculus with 42 samples.

Results

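The genes described here encode the proteasome and the factors that assemble and activate it, followed while cells of the mouse inner cell mass (ICM) became embryonic stem cells (ESCs). They were taken by symbol, as every gene named Psma, Psmb, Psmc, Psmd, Psme, Psmf or Psmg with a number, and 49 such genes were on the arrays of the first run and 45 on those of the second. After probes at background were left out, 41 of 49 could be measured in the first run, among 11450 genes measured, and 40 of 45 in the second, among 10013. They were also read in 3 classes, namely the core (Psma and Psmb, 16 and 14 genes measured in the first and the second run), the regulatory particle (Psmc and Psmd, 18 and 19) and activators or assembly factors (Psme and Psmg, 7 and 7). The symbol rule also took Psmc3ip, a factor of meiotic recombination, and Psme3ip1, a partner of an activator, which are not subunits. Not measured in the first run were Psma1, Psma3, Psmb11, Psmd2, Psmd3, Psmd5, Psme2 and Psmg4, and in the second Psma1, Psma6, Psmb8, Psmd5 and Psme2, so that 43 of the 49 genes were measured in at least 1 run.

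The proteasome degrades proteins that carry a ubiquitin chain. Its core is a barrel of stacked rings in which Psma genes encode the outer rings that gate the entry and Psmb genes the inner rings that hold the proteolytic sites. A regulatory particle caps the barrel, where Psmc genes encode the ATPases that unfold a substrate. Psmd genes encode other subunits of this particle, some of which bind or remove ubiquitin, and chaperones that assemble it. Psmg genes encode chaperones that build the core, and Psme genes encode other caps. In mouse ESCs and early embryos the proteasome is known for its turnover of cell cycle and pluripotency proteins.

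The first run held BALB/c samples on Mouse WG-6 bead arrays, with 3 replicates each of ICMs, of outgrowths of whole blastocysts (BOs) at 4 time points (BO-3 and BO-5, then BO-7 and lastly BO-9, named by the day), and of ESCs. The second held Hybrid_B6 x C3H samples on MouseRef-8 arrays, with 2 replicates each of ICMs, of outgrowths of isolated ICMs, called IOs (IO-0.5 with IO-1, then IO-2 with IO-3 and lastly IO-5, likewise named by the day), of ESCs named by their passage (P2, P4, P15), and of ICM outgrowths without the MEK inhibitor (SBIO-1 and SBIO-3). All other outgrowths and ESCs of both runs grew in N2B27 medium with R2i, which is 1 µM PD0325901, a MEK inhibitor, and 10 µM SB431542, an inhibitor of the TGF-beta type I receptor, and with 1000 U/mL LIF, and the SBIO groups received SB431542 and LIF. ICMs came from E3.5 blastocysts by immunosurgery, which lyses the trophectoderm, while BOs grew from whole blastocysts. Each ICM and outgrowth replicate was a pool of 20 to 30 in the first run and 30 to 40 in the second, the labels call the replicates biological, and RNA was amplified before labelling.

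Levels are normalized intensities on a log2 scale, and no probe's level can be set against another's. A gene was called where it differed by at least 2-fold with an adjusted p (limma, Benjamini-Hochberg over all genes) of at most 0.05 in the first run and 0.01 in the second, and the number of arrays limits the precision. BO-3 replicate 1 detected 26.2% of probes, against 28.9 to 35.4% on the other arrays of its run, and was left out. The study also used 2 BO-3 replicates and does not state which. The hybrid ICM arrays detected 18 and 24.2% of probes, against 33 to 45.6% on the other hybrid arrays. The markers of pluripotent cells (Pou5f1, Nanog and the rest of a list of 8) were all detected on every array of BALB/c ICMs, ESCs and R2i outgrowths, while Sox2 was undetected in hybrid ICMs and in SBIO-3.

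Proteasome genes as a family were high in the BALB/c ICMs, low in all BOs and high again in the ESCs. For each array, the log2 levels of the 41 measured genes were centred on each gene's mean over the run and averaged. This family mean was 0.28 to 0.353 on the 3 ICM arrays, -0.256 to -0.133 on the 11 BO arrays and 0.357 to 0.418 on the 3 ESC arrays. The ICM and ESC arrays lay above every BO array. All 3 classes had this course, with regulatory genes at 0.414 to 0.486 in ICMs, -0.321 to -0.152 in BOs and 0.368 to 0.445 in ESCs, and core genes at 0.0597 to 0.241, -0.244 to -0.049 and 0.3 to 0.392 in the same 3 sets of arrays. The ESC means carry the large rises of Psmd8 and Psma8. Gene by gene, 23 of 41 were lower in ESCs than in ICMs, with a median change of -0.06. So were 10 of 16 core genes (median -0.10) and 11 of 18 regulatory genes (median -0.35).

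**Figure D1:**
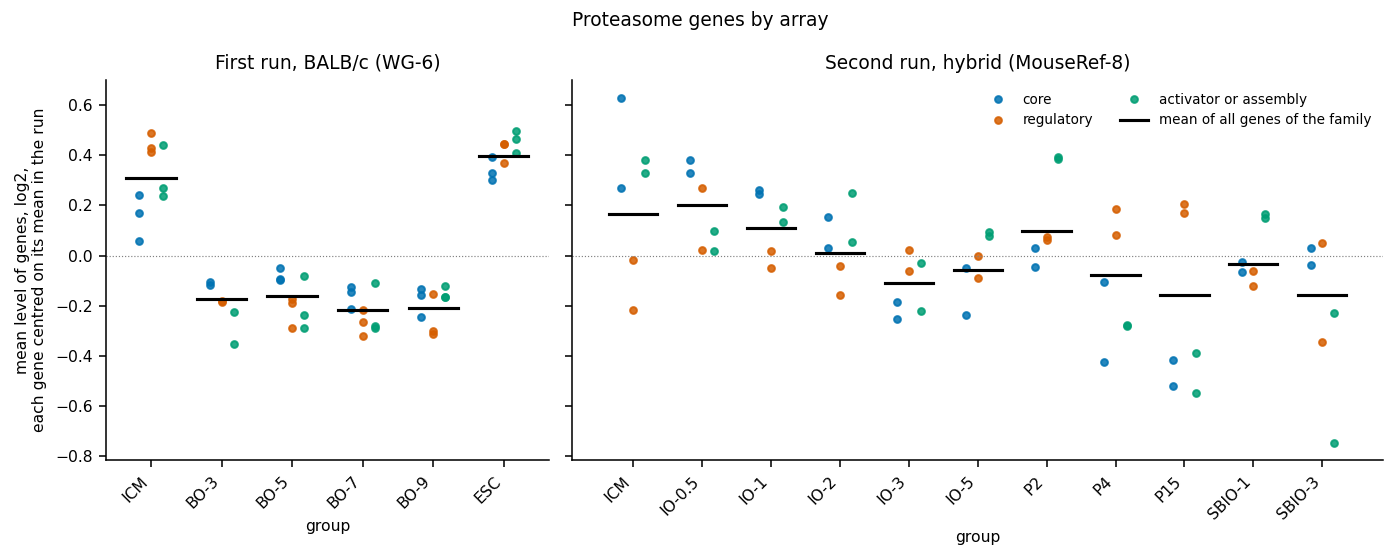
The mean centred log2 level of the measured proteasome genes on each array (y axis) by group (x axis), in the first run (41 genes) and the second (40 genes), with 1 point per class and array and a line at the group mean of all genes. In the first run every BO point lies below 0 and every ICM and ESC point above it. In the second, under quantile normalization, the core has its lowest group mean at P15, with arrays at -0.518 and -0.414. With a common median, however, the median change of the 40 genes in P15 minus ICM is 2.87.

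The first comparison asked how the outgrowths on day 3 differed from ICMs. In BO-3, 34 of 41 proteasome genes (82.9%) were below the ICM level, against 51.5% of all genes, and the median log2 change was -0.54 against -0.02 over all genes. The call was met by 11 of them (26.8%, against 20.5% of all genes), 9 lower (22%, against 7.48% of all genes called lower) and 2 higher (4.88%, against 13%). By the adjusted p alone 22 were lower (53.7%, against 20.1%) and 3 higher (7.32%, against 21.9%). The lower ones by adjusted p came from each class, 8 of 16 core genes, 11 of 18 regulatory genes and 3 of 7 activator or assembly genes. With arrays shifted to a common median 5 genes passed the adjusted p in either direction, against 25 in the main fit.

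The largest fall in BO-3 was in an assembly chaperone of the core. Psmg3 had levels of 6.12 and 6.34 in BO-3 and of 7.68, 7.80 and 7.76 in ICMs, a change of -1.52 (SE 0.289, adjusted p = 4.11e-04, limma). Psmg1, a chaperone of the outer ring, had 7.12 and 7.12 in BO-3 and 8.09, 8.24 and 8.02 in ICMs, which falls just short of 2-fold with a change of -1.00 (adjusted p = 2.93e-04, limma). Neither gene's BO-3 values overlapped those of the ICMs. Psmg3 lost the call without background correction, with a common median and with BO-3 replicate 1 included.

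Most of the other calls were in the regulatory particle. Psmc4, an ATPase of its base, had 11.10 and 11.50 in BO-3 and 12.40, 12.69 and 12.72 in ICMs, a change of -1.30 (SE 0.192, adjusted p = 3.31e-05, limma). The ATPase Psmc3 had 9.00 and 9.07 in BO-3 and 10.14, 10.46 and 10.19 in ICMs, a change of -1.22 (SE 0.232, adjusted p = 3.90e-04). Psmd11, a scaffold subunit of the lid, had 5.56 and 5.59 in BO-3 and 6.64, 6.87 and 6.90 in ICMs, a change of -1.23 (SE 0.194, adjusted p = 6.41e-05). In all 3 genes both BO-3 arrays lay below every ICM array. Psmd11 lost the call without background correction, with a larger offset and with a common median. The other lower calls were the ATPase Psmc1 (-1.19), the lid subunits Psmd6 (-1.22) and Psmd8 (-1.06), and the inner ring subunits Psmb2 (-1.05) and Psmb1 (-1.03), which carry no proteolytic site. Psmd8 lost the call without BO-3 replicate 3 (-1.00), and Psmb2 without BO-3 replicate 2 (-0.96) or ICM replicate 2 (-0.98).

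Against this direction stood an inducible proteolytic subunit and an outer ring subunit known from testis. Psmb9, which replaces Psmb6 after interferon, had 6.40 and 6.08 in BO-3 and 5.17, 4.70 and 4.56 in ICMs, a change of 1.43 (SE 0.22, adjusted p = 5.04e-05, limma), and was detected on 1 of 3 ICM arrays. Psma8, which can replace Psma7, had 7.04 and 6.62 in BO-3 and 5.55, 5.68 and 4.74 in ICMs, a change of 1.51 (SE 0.301, adjusted p = 6.45e-04). Both genes were higher on each BO-3 array than on any ICM array, and both lost the call without background correction, with a larger offset and with BO-3 replicate 1.

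The calls, though not the direction of the median, depended on how arrays were scaled and on that array. With arrays shifted to a common median the median of all genes moved to 0.26 and that of the proteasome genes to -0.21, and 3 genes were called higher and 0 lower (30 of 41 genes had an unadjusted p under 0.05 in the main limma fit), while with BO-3 replicate 1 included 5 were called, all lower. The summed level of 8 trophectoderm markers was 14.4 to 14.9 (log2) in BO-3 and 14.2 to 14.4 in ICMs, with each marker detected on every array of both, and that of 7 primitive endoderm markers 14.2 to 14.4 in BO-3 and 13.7 to 13.9 in ICMs, with Ttr undetected in ICMs. Their part in the result was not tested, and fewer cells of a type and less RNA per cell cannot be told apart in pooled samples.

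**Figure D2:**
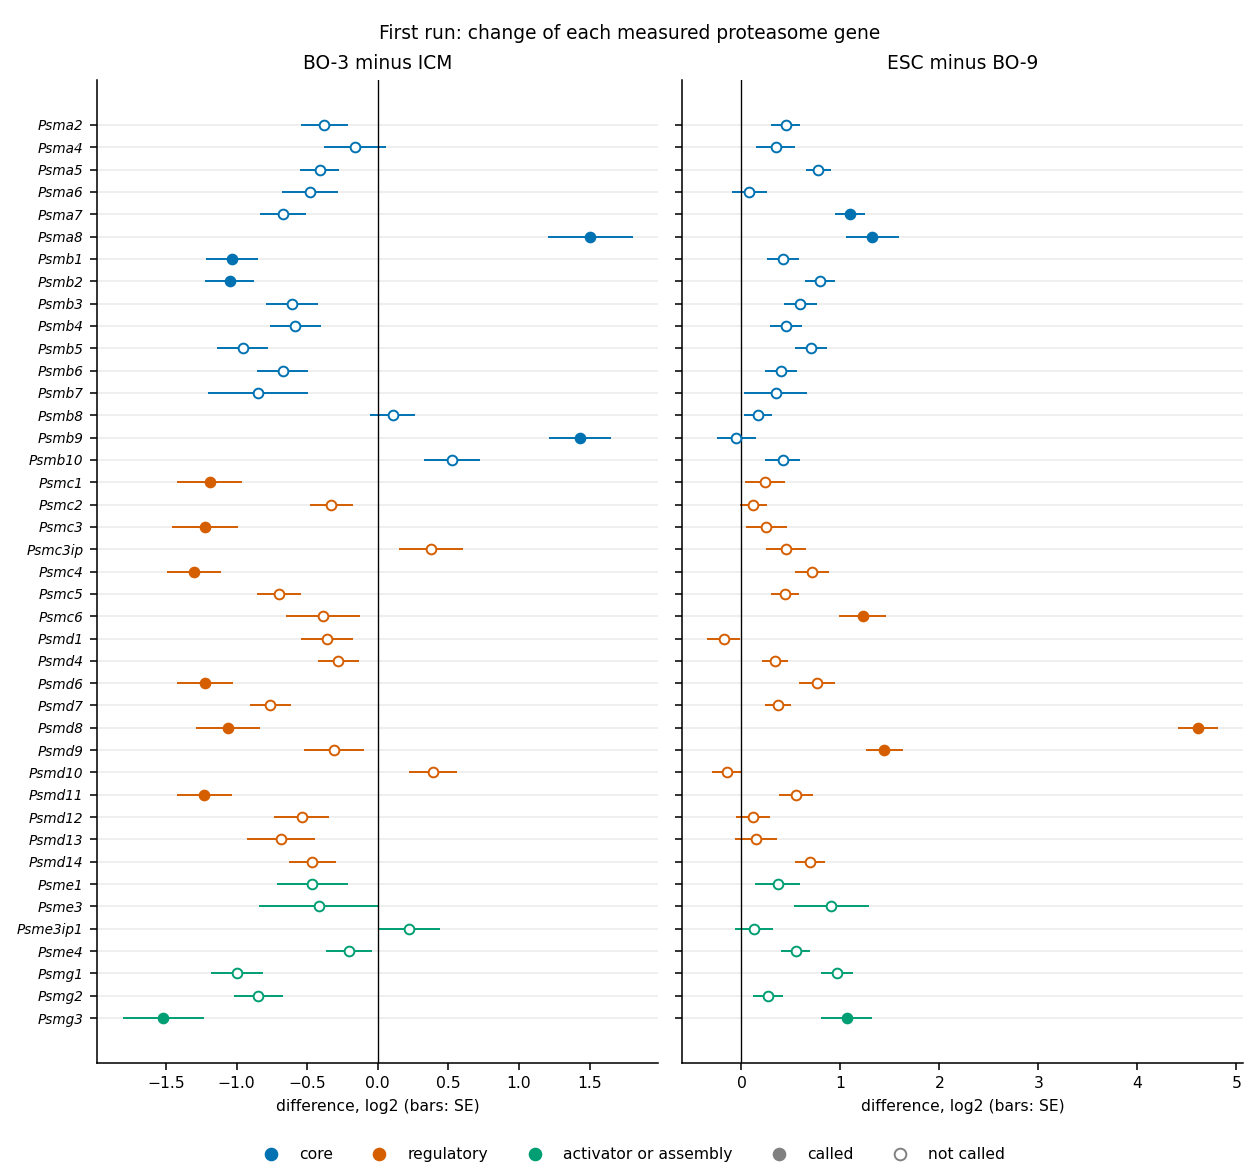
The log2 difference of each measured proteasome gene (x axis, bars: SE) in BO-3 minus ICM (left) and ESC minus BO-9 (right), coloured by class, filled where called. In BO-3 minus ICM 34 of 41 points lie below 0, and in ESC minus BO-9 38 of 41 lie above it.

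The promoters of 4 genes that were lower in BO-3 are shown beside that of Psmb9, which was higher. RefSeq windows on GRCm38.p6, from 250 bases before to 50 after the start site, matched 41 of the 49 genes and 6 of the 9 that were called lower. The letters of 3 motifs were searched on both strands. CGGAAG, the core of sites for ETS factors, was in 24 of the 41 (58.5%), against 32.8% of the 9258 genes measured in the first run that had such a window and 18.8% of all 27025. CCAAT was in 39%, against 42.8% and 41.1%, and TGACNNNGC, the core of sites for the proteasome regulator Nfe2l1, was in 14.6%, against 16.3% and 14%. CGGAAG and CCAAT cannot overlap, whereas TGACNNNGC can share bases with either. Of the 34 proteasome genes measured in the first run that had a window, 22 held CGGAAG (64.7%). All 6 windows of genes called lower held it, and that of Psmb9, which was higher, held none. With 1 window of a gene called higher, the motif cannot be tied to a direction. The lines give 100 bases before to 50 after the start site on the gene's strand, with CGGAAG (or CTTCCG) and CCAAT (or ATTGG) in capitals, for Psmc1 (chr12:100110102-100110251, plus strand), Psmc4 (chr7:28050043-28050192, minus strand), Psmd8 (chr7:29180624-29180773, minus strand), Psmg3 (chr5:139826845-139826994, minus strand) and Psmb9 (chr17:34187281-34187430, minus strand).
Psmc1: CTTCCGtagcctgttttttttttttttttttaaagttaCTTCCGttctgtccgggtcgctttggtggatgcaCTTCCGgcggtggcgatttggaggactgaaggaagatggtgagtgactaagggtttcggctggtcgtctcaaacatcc
Psmc4: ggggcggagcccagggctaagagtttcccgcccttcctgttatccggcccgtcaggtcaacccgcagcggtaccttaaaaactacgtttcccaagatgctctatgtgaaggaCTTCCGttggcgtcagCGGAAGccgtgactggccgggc
Psmd8: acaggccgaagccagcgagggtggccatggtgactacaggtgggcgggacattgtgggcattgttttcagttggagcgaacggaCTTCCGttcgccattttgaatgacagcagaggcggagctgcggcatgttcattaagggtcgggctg
Psmg3: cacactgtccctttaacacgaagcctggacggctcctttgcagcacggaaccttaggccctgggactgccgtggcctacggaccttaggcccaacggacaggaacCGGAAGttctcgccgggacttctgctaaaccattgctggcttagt
Psmb9: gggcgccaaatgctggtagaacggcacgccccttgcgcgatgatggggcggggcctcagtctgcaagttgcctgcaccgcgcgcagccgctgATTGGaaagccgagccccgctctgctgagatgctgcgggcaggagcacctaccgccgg

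In these windows Psmc1 held CGGAAG 3 times, Psmc4 2 times, and Psmd8 and Psmg3 1 time each. The motif began 16 bases before the start site in Psmd8, and 12 and 28 bases after it in Psmc4. A match of letters is a description and not a bound site.

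The second comparison asked how established ESCs differed from the last outgrowths. In ESCs, 38 of 41 proteasome genes were above the BO-9 level, with a median log2 change of 0.44 against 0.01 over all genes. The call was met by 6 genes (14.6%, against 13.7% of all genes), and all 6 were higher (against 4.79% of all genes called higher). By the adjusted p alone 20 were higher (48.8%, against 16.1%) and 0 lower (against 19%), in a limma fit in which 26 had an unadjusted p under 0.05. These 20 were 8 of 16 core genes, 9 of 18 regulatory genes and 3 of 7 activator or assembly genes. With arrays shifted to a common median 8 genes passed the adjusted p, against 20 in the main fit.

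Psmd8, a lid subunit, had the largest difference. Its levels were 11.80, 11.86 and 11.82 in ESCs and 7.25, 7.29 and 7.11 in BO-9, a change of 4.61 (24.4-fold, SE 0.201, adjusted p = 3.70e-11, limma). Psmd9, a chaperone of the ATPase ring, had 5.86, 6.38 and 6.28 in ESCs and 4.78, 4.48 and 4.93 in BO-9, a change of 1.44 (SE 0.187, adjusted p = 1.27e-05), with 2 of 3 BO-9 arrays detected. The ATPase Psmc6 had 7.64, 8.70 and 8.37 in ESCs and 7.40, 6.67 and 6.97 in BO-9, a change of 1.22 (SE 0.234, adjusted p = 5.49e-04). For all 3 genes each ESC array lay above each BO-9 array. Psmd9 lost the call without background correction and with a larger offset, and Psmc6 without background correction and with a common median.

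Outer ring and assembly genes were called too. Psma7, the outer ring subunit of body cells, had 11.22, 11.43 and 11.22 in ESCs and 10.07, 10.23 and 10.28 in BO-9, a change of 1.10 (SE 0.148, adjusted p = 1.95e-05, limma), a call kept in each of 16 other settings. Psmg3 had 8.08, 7.52 and 7.92 in ESCs and 6.42, 7.17 and 6.74 in BO-9, a change of 1.06 (SE 0.258, adjusted p = 0.0038). Psma8 had 8.34, 9.00 and 8.93 in ESCs and 7.77, 6.88 and 7.67 in BO-9, a change of 1.32 (SE 0.269, adjusted p = 9.61e-04), but its other probe gave -1.16. The groups did not overlap in any of the 3. Psma8 lost the call without background correction, and Psmg3 did so too, also with a larger offset and with a common median. The call of Psmg3 was lost without BO-9 replicate 1 (0.88) or ESC replicate 1 (0.94) and that of Psmc6 without ESC replicate 2 (0.99), and only for Psma8 did probes of a proteasome gene differ by more than 1 on the log2 scale in this comparison.

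Many of the genes lower in BO-3 than in ICMs were also higher in ESCs than in BO-9, in comparisons that share no array. Both came from the same fit, with arrays normalized together and a shared estimate of each gene's spread, so they are not independent. Of the 22 lower and the 20 higher by adjusted p, 15 were the same genes, which is 68.2% of the lower and 75% of the higher. Over all 11450 genes the same overlap held 506 of 2296 lower and 1849 higher genes, which is 22% of the lower and 27.4% of the higher. The shares passing the adjusted p were themselves larger for proteasome genes, 53.7% against 20.1% lower and 48.8% against 16.1% higher. Part of the larger overlap follows from these shares. Any overlap beyond them was not tested, and the overlap was read under quantile normalization only. The shared proteasome genes were the outer ring genes Psma5 and Psma7, the inner ring genes Psmb2, Psmb3, Psmb4 and Psmb5, the ATPase genes Psmc4 and Psmc5, the lid genes Psmd6, Psmd7, Psmd8, Psmd11 and Psmd14, and the chaperone genes Psmg1 and Psmg3. Without background correction 2 genes were called in ESCs against BO-9. Trophectoderm markers summed to 13.6 to 13.8 in ESCs, with Elf5 undetected, and to 14.2 to 14.4 in BO-9, and primitive endoderm markers to 8.67 to 11.4 in ESCs and 13.4 to 13.7 in BO-9, and their part in the result was not tested.

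Set against ICMs directly, ESCs differed in few proteasome genes by 2-fold. The call was met by 3 of 41 (7.32%, against 25.7% of all genes), all higher (against 13.9% of all genes called higher), and the median change was -0.06 against 0.00 over all genes. By the adjusted p alone 7 were higher (17.1%, against 26.2%) and 11 lower (26.8%, against 23.2%), and 9 of these 11 were among the 18 regulatory genes. The lower ones were led by Psmd11 at -0.91, Psmc1 at -0.81, Psmd1, the scaffold of the base, at -0.72 and Psmc3 at -0.69, none of them 2-fold. With arrays shifted to a common median 4 genes passed the adjusted p in either direction, against 18 in the main fit.

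The 3 called genes were Psmd8, Psma8 and Psmb10. Psmd8 had 11.80, 11.86 and 11.82 in ESCs and 8.68, 8.63 and 8.59 in ICMs, a change of 3.19 (9.12-fold, SE 0.201, adjusted p = 5.94e-10, limma), while the 11 BO arrays between them in time ran from 6.74 to 7.66 with a median of 7.29. Psma8 had 8.34, 9.00 and 8.93 in ESCs and 5.55, 5.68 and 4.74 in ICMs, where 2 of 3 arrays detected it, a change of 3.44 (SE 0.269, adjusted p = 9.85e-09), and its other probe gave 0.48. Psmb10, the inducible counterpart of Psmb7, had 7.05, 7.41 and 7.37 in ESCs and 5.69, 6.38 and 5.92 in ICMs, a change of 1.28 (SE 0.178, adjusted p = 1.07e-05). All ESC values lay above all ICM values in each of them. Psmb10 lost the call without background correction and with a larger offset.

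**Figure D3:**
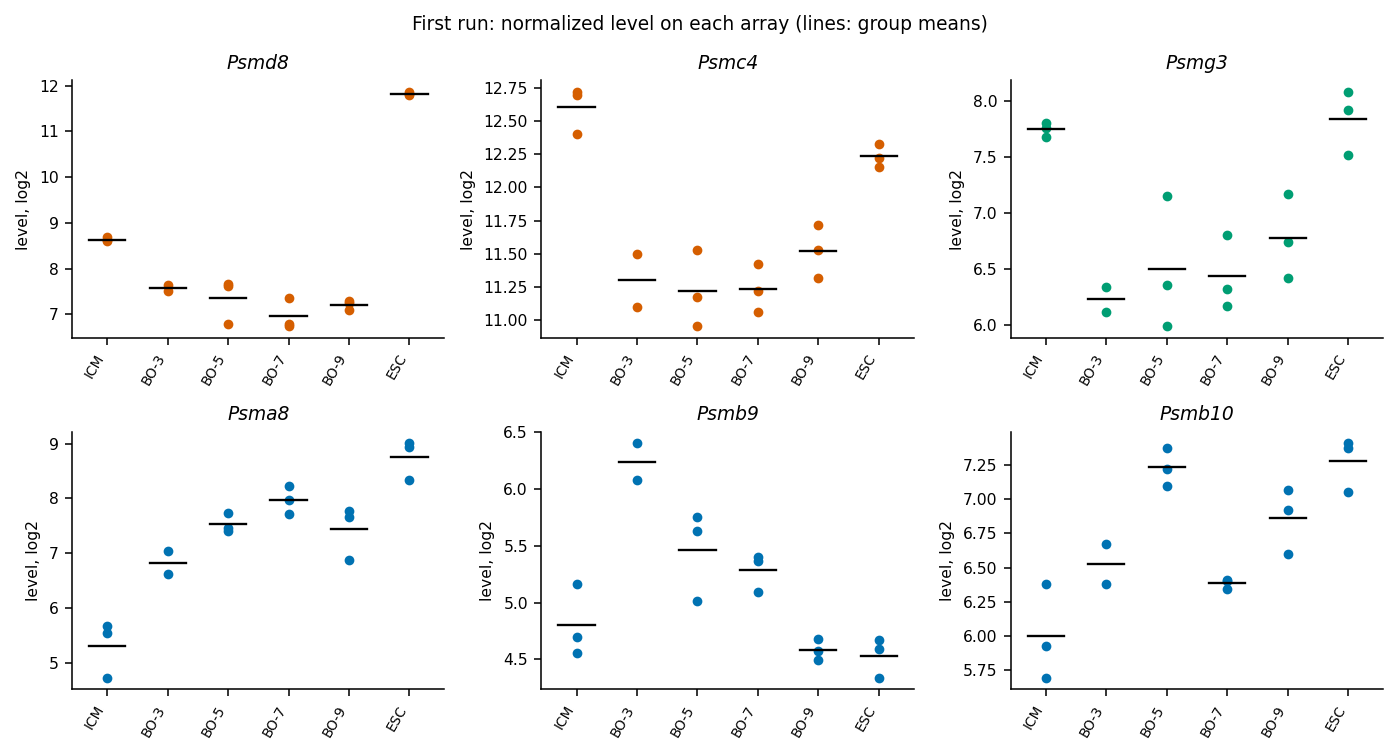
The normalized log2 level (y axis) of 6 proteasome genes on each array of the first run by group (x axis), with lines at the group means. Psmd8 lies at 8.59 to 8.68 in ICMs, 6.74 to 7.66 in BOs and 11.80 to 11.86 in ESCs.

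The proteolytic subunits were read as constitutive ones and their inducible counterparts. Psmb5, the chymotrypsin-like subunit, had 7.56 and 7.80 in BO-3 and 8.65, 8.68 and 8.59 in ICMs, a change of -0.96 (adjusted p = 3.77e-04, limma), and 8.32, 8.22 and 8.13 in ESCs against 7.18, 7.73 and 7.65 in BO-9, a change of 0.70 (adjusted p = 0.00252). Psmb6 changed by -0.67 in BO-3 against ICMs (adjusted p = 0.00615) and had a difference of 0.40 in ESCs against BO-9 (adjusted p = 0.0621). Psmb7 had -0.85 in BO-3 with its brightest probe (adjusted p = 0.064), while its other 3 probes gave 0.00, -0.04 and -0.40, and in ESCs against ICMs its brightest probe gave -0.48 while its other 3 probes gave 0.92 to 1.26. Of the inducible ones, Psmb8 lay near background, detected on 4 of 17 arrays, and Psmb9 had 4.67, 4.59 and 4.34 in ESCs and 4.49, 4.68 and 4.58 in BO-9, a difference of -0.05 (adjusted p = 0.874).

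The activators were called in none of the 3 comparisons of BALB/c cells. Psme4, a nuclear activator, was higher in ESCs than in BO-9 by 0.55 (adjusted p = 0.00666, limma) and had -0.20 in BO-3 against ICMs (adjusted p = 0.343). Psme1 and Psme3 passed the adjusted p in none of the 3 comparisons, with changes from -0.46 to 0.91. Psme2, the partner of Psme1, was detected on none of the arrays of either run and was not measured.

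Between successive BO days no proteasome gene was called. BO-5 against BO-3, BO-7 against BO-5 and BO-9 against BO-7 each called 0 of 41 genes (limma, with 4, 1 and 5 genes at an unadjusted p under 0.05), against 0.507, 0.603 and 0.934% of all genes. The median changes were -0.0018, -0.06 and 0.01.

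In the hybrid series the means of the core and the regulatory genes parted under quantile normalization. The core mean was 0.27 and 0.629 on the ICM arrays, 0.328 to 0.379 at IO-0.5, 0.246 to 0.261 at IO-1, 0.0309 to 0.153 at IO-2, -0.253 to -0.186 at IO-3, -0.235 to -0.0491 at IO-5, -0.0442 to 0.0282 at P2, -0.424 to -0.105 at P4 and -0.518 to -0.414 at P15. The regulatory mean was 0.17 to 0.206 at P15, against -0.217 and -0.0164 in ICMs. The core arrays at P15 lay below every ICM array, and the regulatory ones above, an order given under quantile normalization only. Gene by gene, 11 of the 19 regulatory genes were lower at P15 than in ICMs, with a median change of -0.04. Their mean carries the large rises of Psmc6, which was undetected in ICMs, and of Psmc3ip, which is not a subunit.

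P15 ESCs against hybrid ICMs called 13 of 40 proteasome genes (32.5%, against 48.1% of all genes), 10 lower (25%, against 23.9%) and 3 higher (7.5%, against 24.2%). With arrays shifted to a common median this direction turned, with 34 called higher and 0 lower, a median of the proteasome genes of 2.87 and of all genes of 1.47, so the lower calls in this comparison hold for quantile normalization only. The median change was -0.44 over the proteasome genes, against 0.04 over all genes, and was -0.68 for the core, -0.04 for the regulatory genes and -0.93 for activator or assembly genes. The hybrid ICM arrays were those with the lowest share of probes detected, and primitive endoderm markers summed to 8.13 to 8.17 at P15, where 6 of 8 were undetected, and to 12.6 to 12.7 in ICMs, and the part of both in the result was not tested.

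Under quantile normalization the falls were mostly in the inner ring, 6 of the 10. Psmb6, the caspase-like subunit, had 10.37 and 10.28 at P15 and 12.41 and 12.14 in ICMs, a change of -1.95 under quantile normalization (SE 0.268, adjusted p = 1.78e-05, limma) and of 1.85 with a common median. Psmb7, the trypsin-like subunit, had 8.70 and 8.73 at P15 and 10.91 and 10.36 in ICMs, a change of -1.92 (SE 0.524, adjusted p = 0.00484), against 2.01 with a common median. Psmb9 had 5.20 and 5.16 at P15 and 8.82 and 6.36 in ICMs, where 1 of 2 arrays detected it, a change of -2.41 under quantile normalization (SE 0.52, adjusted p = 8.5e-04), a call lost with a common median. Both P15 values lay below both ICM values in each, and the ICM pair of Psmb9 was far apart. Psmb7 lost the call without ICM replicate 1 (-1.64), P15 replicate 1 (-1.89) or P15 replicate 2 (-1.92). Psmb1, Psmb2 and Psmb3 changed by -1.63, -1.64 and -1.65 under quantile normalization, and by 2.38, 2.21 and 2.19 with a common median.

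The chaperone Psmg3 was again among the largest falls, with 6.45 and 6.08 at P15 and 8.45 and 8.39 in ICMs, a change of -2.16 under quantile normalization (SE 0.272, adjusted p = 7.89e-06, limma) and 1.01 with a common median. The ATPase genes Psmc4, Psmc5 and Psmc3 changed by -1.69, -1.30 and -1.22 under quantile normalization, and by 1.95, 2.57 and 2.80 with a common median. Psmb1, Psmb2, Psmc3, Psmc4 and Psmg3 were also called lower in BO-3 than in ICMs of BALB/c, on other arrays. Those calls were lost with a common median, and they concern day 3 outgrowths and not ESCs. In BALB/c ESCs against ICMs 0 of 41 genes were called lower. There the same genes changed by -0.28, -0.05, -0.69, -0.37 and 0.09 in this order. The shared calls were not set against those of all genes.

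The 3 genes called higher at P15 belonged to the regulatory class and rose under both scalings. Psmc6 had 8.90 and 9.29 at P15 and 5.28 and 4.89 in ICMs, where neither array detected it, and was at least 4.54-fold higher at P15 (adjusted p = 2.37e-05, limma), a bound set against the dimmest probe well detected on each array. Psmd10, a chaperone of the ATPase ring also known as gankyrin, had 10.93 and 11.09 at P15 and 9.58 and 9.22 in ICMs, a change of 1.61 (SE 0.283, adjusted p = 1.59e-04), and its other probes gave 1.35 and 1.92. Psmc3ip had 9.74 and 9.59 at P15 and 8.83 and 6.55 in ICMs, with 1 of 2 ICM arrays detected, a change of 1.98 (SE 0.473, adjusted p = 0.00189), and lost the call without ICM replicate 2 (0.84), P15 replicate 1 (1.88) or P15 replicate 2 (2.04). Only for Psmd10 did both ICM arrays detect the gene.

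Among the other subunits with a named role, under quantile normalization, Psme1 (-0.97, adjusted p = 0.00121, limma) and Psme4 (0.93, adjusted p = 0.00552) passed the adjusted p short of 2-fold. Psme3 (-1.73, adjusted p = 0.0419), Psmb5 (-0.81, adjusted p = 0.0143), Psma7 (-0.52, adjusted p = 0.0458) and Psmb10 (0.03, adjusted p = 0.953) did not.

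Probes of 1 gene often disagreed in this comparison. Of 13 proteasome genes with several probes, 7 had probes more than 1 apart on the log2 scale, and the sign differed for Psmb2, Psmd11, Psme1 and Psmg2. Psmg2, a chaperone of the outer ring, had -0.93 with its brightest probe and 0.93 with the other.

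**Figure D4:**
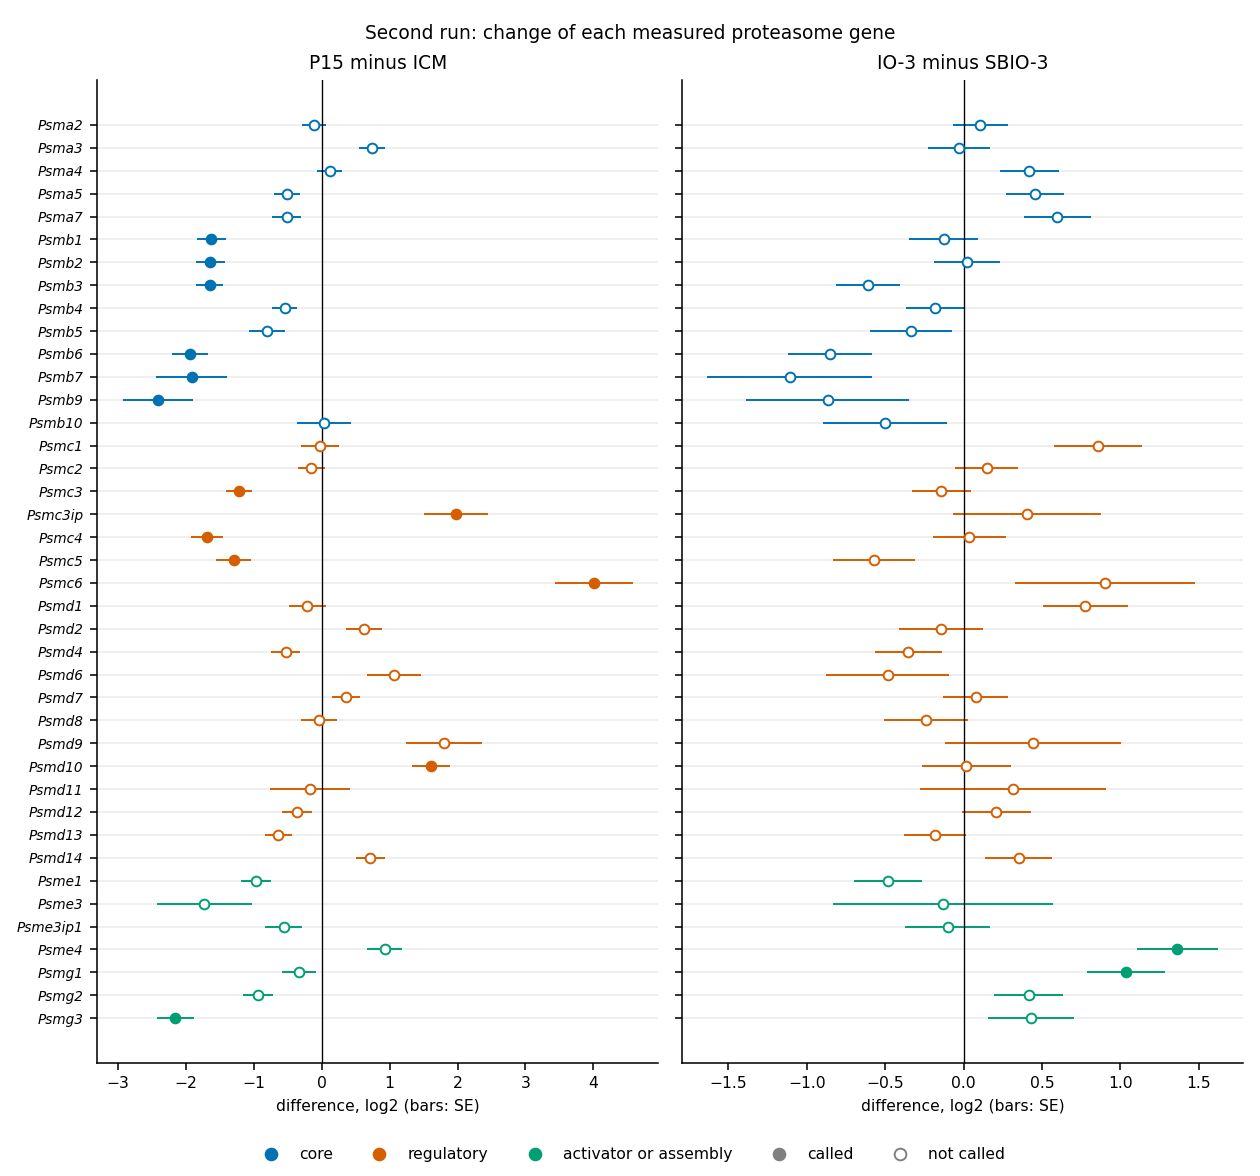
The log2 difference of each measured proteasome gene (x axis, bars: SE) in P15 minus hybrid ICM (left) and IO-3 minus SBIO-3 (right) under quantile normalization, coloured by class, filled where called. On the left 10 filled points lie below 0 and 3 above, a split that turns to 0 below and 34 above with a common median, and on the right the filled points are Psme4 and Psmg1.

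Early and late steps of the hybrid series called few of these genes. IO-0.5 against ICMs called 1 of 40 (2.5%, against 23.8% of all genes and 11.6% called higher), the gene Psmc3ip, with 9.98 and 9.75 at IO-0.5 and the ICM values above, a change of 2.18 (SE 0.473, adjusted p = 0.00206, limma), lost without ICM replicate 2 (1.04) and without IO-0.5 replicate 1 (2.07). With a common median 3 were called, all higher, and the median change of the proteasome genes was 1.73, against -0.13 under quantile normalization. Trophectoderm markers summed to 14.05 to 14.13 at IO-0.5 and to 12.65 to 12.95 in ICMs, where Elf5, Eomes, Gata3 and Plac1 were undetected, and their part in the result was not tested. P15 against IO-5 called 3 (7.5%, against 12% of all genes), 1 higher (2.5%, against 4.99%) and 2 lower (5%, against 6.99%). Psmc6 had 8.90 and 9.29 at P15 and 6.62 and 6.72 at IO-5, a change of 2.43 (SE 0.572, adjusted p = 0.0064). Psmb6 had 10.37 and 10.28 at P15 and 11.03 and 11.81 at IO-5, a change of -1.09 (adjusted p = 0.00811), and Psmb1 had 9.55 and 9.48 at P15 and 10.69 and 10.53 at IO-5, a change of -1.09 (adjusted p = 0.00235). The groups did not overlap, but with a common median 0 genes were called, and 0 without IO-5 replicate 2, without P15 replicate 1 or without P15 replicate 2 (14 had an unadjusted p under 0.05 in the main limma fit). Primitive endoderm markers summed to 8.13 to 8.17 at P15, where 6 of 8 were undetected, and to 13.47 to 13.87 at IO-5, and trophectoderm ones to 12.87 to 13.01 at P15, where 5 of 8 were undetected, and to 13.09 to 13.15 at IO-5, and their part in the result was not tested.

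No single step between successive stages from IO-0.5 to P15 called any of the 40 genes (limma), with 2 to 10 genes at an unadjusted p under 0.05 in each step. Of all genes 3.4% were called in IO-1 against IO-0.5, 1.8% in IO-2 against IO-1, 0.0999% in IO-3 against IO-2, 0.16% in IO-5 against IO-3, 1.32% in P2 against IO-5, 0.32% in P4 against P2 and 0.33% in P15 against P4. For Psmb1, the pairs of levels under quantile normalization were 11.18 and 11.10 in ICMs, 10.97 and 11.22 at IO-0.5, 10.82 and 11.02 at IO-1, 11.11 and 10.88 at IO-2, 10.73 and 10.75 at IO-3, 10.69 and 10.53 at IO-5, 10.69 and 10.64 at P2, 9.99 and 10.64 at P4 and 9.55 and 9.48 at P15. Up to P4 each pair overlapped or lay close to the pair before it, and the P15 pair lay below all others.

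The MEK inhibitor was tested by setting IOs in R2i against SBIOs of the same day. On day 1, IO-1 against SBIO-1 called 0 of 40 genes (limma, 5 at an unadjusted p under 0.05), against 2.52% of all genes, and the nearest was Psmb5 with 9.66 and 9.62 in IO-1 and 8.67 and 8.62 in SBIO-1, a difference of 1.00 (adjusted p = 0.0373). On day 3, IO-3 against SBIO-3 called 2 (5%, against 11.1% of all genes), both higher (against 6.2% of all genes called higher). Psme4 had 12.53 and 12.64 in IO-3 and 11.03 and 11.43 in SBIO-3, a change of 1.36 (SE 0.258, adjusted p = 0.0015). Psmg1 had 8.80 and 8.66 in IO-3 and 8.05 and 7.34 in SBIO-3, a change of 1.04 (SE 0.248, adjusted p = 0.00738). Psmb6 was lower in IO-3, with 11.26 and 11.14 against 12.07 and 12.03 in SBIO-3, but did not pass (-0.85, adjusted p = 0.033).

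The calls of day 3 rested on few arrays. The SBIO-3 arrays detected 33.5 and 36.7% of probes, against 42.4 and 43.8% on the IO-3 arrays. The part of this difference in the result was not tested. Without IO-3 replicate 1 or without IO-3 replicate 2, 0 genes were called, and without SBIO-3 replicate 2, 4 were, 2 in each direction. With a common median 4 were called and the median change of the proteasome genes was 1.68, against 0.02 under quantile normalization, while array weights left 1 call and a limma fit of only the arrays compared left 0 (11 genes had an unadjusted p under 0.05 in the main fit). Markers moved with this comparison, pluripotent ones summing to 12.8 to 12.9 in IO-3 and 10.4 to 11.3 in SBIO-3, where Sox2 was undetected, trophectoderm ones to 12.7 to 12.8 in IO-3 and 13.9 to 14.0 in SBIO-3, and primitive endoderm ones to 13.9 to 14.1 in IO-3 and 15.2 in SBIO-3, and their part in the result was not tested.

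SBIO-3 against SBIO-1 called 0 of 40 genes (limma, 12 at an unadjusted p under 0.05), against 7.12% of all genes, and without SBIO-3 replicate 1 it called 2, both lower. Whether the effect of the medium differed between days 3 and 1 was tested as an interaction, which called 0 of 40 (13 at an unadjusted p under 0.05), against 10.2% of all genes. Nearest to the limit were Psmb6, with a difference of differences of -1.51 (SE 0.379, adjusted p = 0.0111, limma), and Psme4 with 1.34 (SE 0.365, adjusted p = 0.0172). Psmb9 at -1.72 (adjusted p = 0.106) and Psmb7 at -1.65 (adjusted p = 0.123) were larger and less precise. The SBIO-1 arrays detected 43.3 and 44% of probes, more than the SBIO-3 arrays, and the part of this was not tested.

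**Figure D5:**
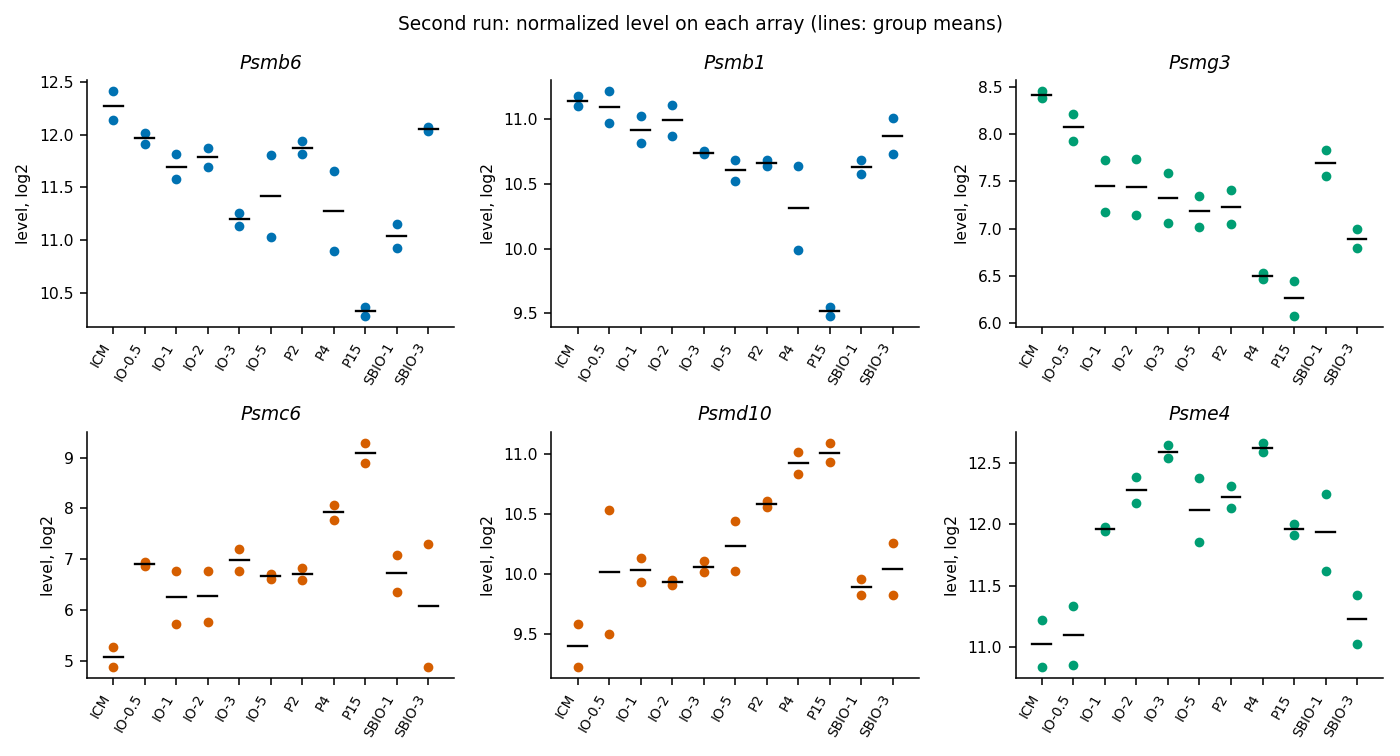
The normalized log2 level (y axis) of 6 proteasome genes on each array of the second run by group (x axis), with lines at the group means, under quantile normalization. Psmb6, Psmb1 and Psmg3 have their lowest group mean at P15 (with a common median P15 minus ICM is above 0 for these 3 genes) and Psmc6 and Psmd10 their highest, while Psme4 lies at 12.53 and 12.64 in IO-3 and 11.03 and 11.43 in SBIO-3, and Psmc6 in ICMs was not detected.

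The course of Psmd8 differed between the runs although the same probe stood for it on both array types. On the 22 hybrid arrays its level ran from 10.78 to 11.59 with a median of 11.19, and it was called in none of the comparisons of that run. The second run also held 2 BALB/c ICM arrays that were kept out of the fits. Normalized together with the hybrid arrays, Psmd8 had 8.80 and 8.49 on these, against 11.1 and 11.08 on the hybrid ICM arrays and 10.74 to 11.56 on the other 20 hybrid arrays. Psmc6 had 7.84 and 7.87 on the BALB/c ICM arrays, and 5.25 and 4.87 on the hybrid ICM arrays. For Psmd8 the BALB/c ICMs lay below all hybrid arrays of any stage, and for Psmc6 above both hybrid ICM arrays. The strain and the pools of embryos cannot be told apart here. In the first run, normalized apart, this Psmd8 probe had 11.80 to 11.86 in BALB/c ESCs, close to the hybrid levels. It had 8.59 to 8.68 in BALB/c ICMs and 6.74 to 7.66 in BOs. What sets the BALB/c ESCs apart from the other BALB/c samples on this probe was not tested.

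Over the 38 genes measured in both runs, ESCs against BALB/c ICMs and P15 against hybrid ICMs under quantile normalization had the same sign for 23, 6 higher and 17 lower, and opposite signs for 15, and the Pearson's r across genes was 0.27 and Spearman's rho 0.256, with 33 genes on the same probe. Genes are not independent replicates, and strain, passage and array type differ between the runs.

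Genes that work beside the proteasome were read from lists of their own. Of 6 measured genes of proteasome-associated proteins only Sem1, a small lid protein, passed the adjusted p in BO-3 against ICMs (-0.60, adjusted p = 0.00536, limma), short of 2-fold, and in ESCs against ICMs the adaptor Ecpas was lower, with a change of -1.86. Of 9 genes of ubiquitin supply and substrate delivery, BO-3 against ICMs called 1 higher (Ubqln2, 1.00) and 1 lower (Nsfl1c, -1.15), against 20.5% of all genes called. ESCs against BO-9 called 3 of the 9, against 13.7% of all genes, all higher, with Ufd1 at 1.33, Uba6, a ubiquitin-activating enzyme, at 1.23 and Nploc4 at 1.18. By the adjusted p alone 4 were higher and 3 lower there, the lower ones being the delivery factors Ubqln1 (-0.46), Ubqln2 (-0.44) and Rad23b (-0.40). ESCs against ICMs called Uba6 (1.42), Ufd1 (1.18) and Ubqln4 (1.02) higher and Ubqln1 (-1.25) and Rad23b (-1.11) lower, against 25.7% of all genes called.

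In the hybrid series, where the list genes were not recomputed with a common median and their values hold for quantile normalization, P15 against ICMs called the proteasome-bound deubiquitinases Uchl5 (1.47) and Usp14 (1.41) higher and Sem1 (-1.45) lower, and of the ubiquitin list Uba6 (1.06) higher and Nsfl1c (-2.04) and Rad23b (-1.63) lower. P15 against IO-5 called Usp14 (1.23) and Uba6 (1.12) higher and Nsfl1c (-1.30) lower. Of all genes 48.1% were called in P15 against ICMs and 12% in P15 against IO-5. The regulators of subunit transcription Nfe2l1, Nfe2l2 and Ngly1 had adjusted p values of 0.471 to 0.971 in the 3 comparisons of the first run (limma). In the second run, where 2 of them were measured, Ngly1, which activates Nfe2l1, was called lower in IO-0.5 against ICMs (-1.90, adjusted p = 1.71e-04) and in P15 against ICMs (-1.82, adjusted p = 8.57e-05), and Nfe2l1 was called lower in P15 against IO-5 (-1.38, adjusted p = 3.3e-04).

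Of 9 class I antigen presentation genes, which belong with the inducible subunits, BO-3 against ICMs called 2 higher (against 13% of all genes called higher), H2-D1 at 1.44 and the interferon response factor Irf1 at 1.40. ESCs against BO-9 called 2 lower, H2-D1 at -1.80 and B2m, the light chain of class I molecules, at -1.34. ESCs against ICMs called the chaperone Pdia3 higher at 1.61 and H2-D1 lower at -1.10. Under quantile normalization P15 against ICMs called Irf1 (4.77) and Pdia3 (2.39) higher and Tapbp (-2.13) and B2m (-1.11) lower, P15 against IO-5 called B2m lower (-2.07), IO-0.5 against ICMs called Irf1 higher (2.57), and IO-3 against SBIO-3 called Irf1 higher (2.13) and B2m lower (-1.36). B2m was called higher in SBIO-3 against SBIO-1 (2.58). Of all genes 13.7% were called in ESCs against BO-9 and 25.7% in ESCs against ICMs. In the hybrid series the shares were 48.1% in P15 against ICMs, 12% in P15 against IO-5 and 23.8% in IO-0.5 against ICMs. They were 11.1% in IO-3 against SBIO-3 and 7.12% in SBIO-3 against SBIO-1. The gene lists were described by counts and were not tested as lists.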

How the data were processed

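RNA of 42 samples was amplified and hybridized to Illumina bead arrays. The authors exported raw probe intensities with a detection p-value per probe from GenomeStudio (version not given in the sources used here), and these deposited intensities were the starting point. The authors also deposited background-corrected, quantile-normalized log2 values made with limma, which equalled the values computed here up to a constant of 4.13 or 4.15 to 4.16 in log2 and served as an alternative.

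With R 4.3.3 and limma 3.58.1, intensities were background-corrected by normexp from the detection p-values with an offset of 16, quantile-normalized over the 17 or 22 arrays of a run and put on a log2 scale. Probes with a detection p under 0.05 on 2 or more arrays were kept, and the brightest probe stood for a gene. Group means were fitted (lmFit, eBayes), p-values were adjusted by Benjamini-Hochberg over all genes, and a call needed a 2-fold change and an adjusted p up to 0.05 (first run) or 0.01 (second run), as in the study. The fits were tested on simulated data. Figures used Python 3.11.15, pandas 2.3.3 and matplotlib 3.10.9.

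The members and gene lists were chosen with earlier results of these data known. Named were every member called in a main comparison (where over 8 were called, the 4 largest rises and 4 largest falls in full), the proteolytic, inducible and activator subunits, Psma7 and Psma8, Psmc3ip, and the called genes of the other lists with the largest changes. Alternatives were the background correction, offset, scaling, filter, probes averaged, array weights, a replicate block, the arrays included, Psmc3ip left out, and each replicate left out in turn. BO-3 replicate 1 and, in the second run, 2 BALB/c ICM arrays did not enter the fits. Precision is limited by the number of arrays. Chips are not named in the file headers and could not be fitted as a block.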

Additional observations from a re-analysis of the deposited data

How the results depend on the processing

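Over the main comparisons, 78 of 100 counts of called proteasome genes under other settings stayed within 1.5 times the main count and 79 of 99 medians stayed within the spread between replicates.

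BO-3 against ICMs called 11 genes in the main fit, 4 without background correction, 7 with an offset of 50, 3 with arrays shifted to a common median and 5 with BO-3 replicate 1 included. ESCs against BO-9 called 2 without background correction, against 6. IO-0.5 against ICMs, with 1 call, had 3 with a common median, 0 with array weights and 0 with only the arrays compared. P15 against ICMs called 34 with a common median, against 13, and P15 against IO-5 called 0, against 3. IO-3 against SBIO-3, with 2 calls, had 1 without background correction, 1 with an offset of 50, 4 with a common median, 1 with array weights and 0 with only the arrays compared. SBIO-3 against SBIO-1 had 3 with a common median, against 0, and the interaction, with 0, had 2 without background correction, 1 with an offset of 50, 9 with a common median, 1 with the mean of all probes and 1 with the BALB/c ICM arrays included.

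The median change of the proteasome genes with a common median was -0.0168 for ESCs against ICMs, -0.21 for BO-3 against ICMs, 0.37 for ESCs against BO-9, 1.73 for IO-0.5 against ICMs, 2.87 for P15 against ICMs, 0.57 for P15 against IO-5, -0.91 for IO-1 against SBIO-1, 1.68 for IO-3 against SBIO-3 and -1.62 for SBIO-3 against SBIO-1. The median of all genes moved with it to 0.26 in BO-3 against ICMs, 0.63, 1.47 and 0.12 in IO-0.5 against ICMs, P15 against ICMs and P15 against IO-5, and -0.62, 0.97 and -0.96 in IO-1 against SBIO-1, IO-3 against SBIO-3 and SBIO-3 against SBIO-1. Without a filter on dim probes the median was 0.0059 for ESCs against ICMs, -0.42 for BO-3 against ICMs, 0.37 for ESCs against BO-9, -0.37 for P15 against ICMs and 0.000314 for P15 against IO-5. It was -0.14 with array weights and -0.10 without Psmc3ip for ESCs against ICMs, 0.38 without background correction for ESCs against BO-9, -0.0534 with the mean of all probes for IO-0.5 against ICMs, and -0.33 with that mean and -0.51 without Psmc3ip for P15 against ICMs.

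For P15 against ICMs a common median turned the sign of Psmb1 (2.38), Psmb2 (2.21), Psmb3 (2.19), Psmb6 (1.85), Psmb7 (2.01), Psmc3 (2.80), Psmc4 (1.95), Psmc5 (2.57) and Psmg3 (1.01). The cause was not tested. The calls of Psmd8 and Psma8 (ESCs against ICMs), Psmd8 and Psma7 (ESCs against BO-9), and Psmc6 and Psmd10 (P15 against ICMs) held under every alternative run.

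Leaving out 1 replicate at a time gave 10 to 12 calls (BO-3 against ICMs), 5 to 7 (ESCs against BO-9), 3 to 4 (ESCs against ICMs), 1 to 2 (IO-0.5 against ICMs), 12 to 15 (P15 against ICMs), 0 to 3 (P15 against IO-5), 0 to 0 (IO-1 against SBIO-1), 0 to 4 (IO-3 against SBIO-3), 0 to 2 (SBIO-3 against SBIO-1) and 0 to 2 (interaction). The medians ran from -0.60 to -0.51, 0.39 to 0.55, -0.12 to -0.071, -0.188 to 0.00515, -0.554 to -0.43, -0.165 to -0.0372, 0.0606 to 0.136, -0.00607 to 0.0532 and -0.144 to 0.00264 in the first 9 of these comparisons in the same order. A lone array of a group was assumed to vary like the other groups.

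With the replicate number as a block, IO-0.5 against ICMs called 2 genes, BO-3 against ICMs 12, P15 against ICMs 14, ESCs against ICMs 3, ESCs against BO-9 6 and P15 against IO-5 3. The numbers did not pair the samples throughout. Deviations of same-numbered samples correlated at -0.303 to 0.393 in the first run and -0.482 to 0.485 in the second. For replicate 3 of the first run the range was -0.0728 to 0.389, with 7 of 15 pairs above 0.1. Chip as a block was not run, since no chip was named. Low signal limits Psmb8, Psmb9, Psmd9 and Psmd11, which lay near background, though Psmd11 was detected on all 17 arrays of the first run. It also limits Psma6 in the first run, at 4.70 to 5.23 on the 11 BO arrays, and Psmd2 in the second, detected on 11 of 22 arrays.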
